A study of Mus musculus with 3 samples.

Results

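Matrix metalloproteinases (MMPs) are zinc-dependent enzymes that cut collagens and other proteins of the extracellular matrix, and tissue inhibitors of metalloproteinases (TIMPs) bind their active site. Tendon is built from collagen fibrils that are deposited and trimmed as the tissue grows, and the balance of both families is known to matter for how matrix is remodeled. The 9 genes described here were taken by symbol from the count tables and are 6 MMPs, *Mmp2*, *Mmp3*, *Mmp9*, *Mmp11*, *Mmp13* and *Mmp14*, and 3 inhibitors, *Timp1*, *Timp2* and *Timp3*. They are 9 of the 27755 genes that the tables of the D10 culture and the E14.5 tail list, and of the 25936 in that of the D6 culture. *Mmp2* and *Mmp9* encode gelatinases, *Mmp3* and *Mmp11* stromelysins, *Mmp13* a collagenase and *Mmp14* a membrane-anchored MMP. Mmp14 at the cell surface binds Timp2, and this pair holds and activates the secreted precursor of Mmp2, so that Timp2 is both an inhibitor and a partner of activation.

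Single-cell RNA sequencing (scRNA-seq) was carried out on 3 mouse libraries, each the only library of its condition. The D6 culture was made of embryoid bodies of mouse embryonic stem cells (mESCs) guided toward paraxial mesoderm (PM) with the BMP receptor inhibitor LDN-193189 and the Wnt activator CHIR. The D10 culture came from the same protocol, continued from D6 with TGFβ1, the smoothened agonist SAG and FGF2. The E14.5 tail was dissected from mouse embryos and serves as the in vivo tissue with tendon. The mESCs carried the ScxGFP transgene, a GFP reporter of the tendon transcription factor *Scx*, had been derived from blastocysts of ScxGFP mice, and were kept on feeder layers of irradiated mouse embryonic fibroblasts before differentiation. Embryos were collected from ScxGFP dams. Which mESC line entered these libraries, and how many embryos gave the tail cells, are not given in the sources used here.

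Unique molecular identifiers (UMIs) count transcript molecules, and their median per cell was 5622 over 7821 cells at D10, 13512 over 2052 tail cells and 8171 over 5954 cells at D6. Total counts were 53403944, 31343741 and 51858825 UMIs. Between 3 and 10 cell barcodes were shared by each pair of libraries. Cells were grouped by the cluster codes that came with the counts. These codes are shared by the D10 culture and the tail, and the D6 culture has a numbering of its own. Clusters were given names with the ending "-like" from marker genes, so that these names may differ from those of the study. Cluster 1 (tendon-like) held 2964 culture and 685 tail cells, and its *Scx* level was 2410 and 1472 CPM, where CPM are UMIs per 1000000 UMIs of all genes. Cluster 2 (proliferating tendon-like) held 1353 and 186 cells, cluster 4 (fibrocartilage-like) 855 and 241 cells, and cluster 11 (endothelium-like) 58 and 71 cells. In the D6 culture, cluster 4 (somite-like) held 700 cells. The 10 leading genes of culture cluster 1 held *Tagln*, a smooth muscle gene, and no gene of the tendon list. Those of tail cluster 1 held no gene of the tendon list either, and those of D6 cluster 4 held none of the paraxial mesoderm list. Clusters were therefore compared by their number. With 1 library per condition no test was possible, and every 95% interval given here covers counting error only. A level is the CPM of the UMIs summed over the cells of a cluster, a difference of 2-fold or more is called a difference, and a gene entered a comparison with at least 25 UMIs over both groups. A gene that would fall short of 25 UMIs if both groups had the lower of their levels entered only through the group where it was high and could be called in that direction alone, and counts are also given without such genes where members were among them.

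The promoter sequences of 4 members are shown, of *Mmp3* and *Mmp13*, whose UMIs lay in the same clusters, and of *Mmp14* and *Timp2*, whose products act together on the precursor of Mmp2. Each run holds the 250 bases before the annotated transcription start, 5′ to 3′ on the strand of the gene, from RefSeq on build GRCm38.p6. The windows lie at chr9:7445572-7445821 on the plus strand for *Mmp3*, chr9:7272264-7272513 on the plus strand for *Mmp13*, chr14:54431348-54431597 on the plus strand for *Mmp14* and chr11:118355412-118355661 on the minus strand for *Timp2*. Capitals mark matches to TGANTCA, the site of AP-1 factors, to TATAAA, the TATA box, and to GGGCGG, the GC box.
Mmp3: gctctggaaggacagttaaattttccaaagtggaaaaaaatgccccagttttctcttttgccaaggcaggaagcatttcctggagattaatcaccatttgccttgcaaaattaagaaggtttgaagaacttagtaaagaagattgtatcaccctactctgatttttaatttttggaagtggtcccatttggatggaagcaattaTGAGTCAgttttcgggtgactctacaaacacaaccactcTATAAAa
Mmp13: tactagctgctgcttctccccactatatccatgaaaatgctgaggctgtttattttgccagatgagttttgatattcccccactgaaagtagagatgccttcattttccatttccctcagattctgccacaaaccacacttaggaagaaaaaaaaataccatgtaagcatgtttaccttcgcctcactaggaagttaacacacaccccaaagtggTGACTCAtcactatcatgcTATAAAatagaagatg
Mmp14: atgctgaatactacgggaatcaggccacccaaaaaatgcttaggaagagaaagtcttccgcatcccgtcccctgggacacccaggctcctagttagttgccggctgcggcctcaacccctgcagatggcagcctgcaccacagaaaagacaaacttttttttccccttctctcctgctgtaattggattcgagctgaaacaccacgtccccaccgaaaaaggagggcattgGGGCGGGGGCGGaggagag
Timp2: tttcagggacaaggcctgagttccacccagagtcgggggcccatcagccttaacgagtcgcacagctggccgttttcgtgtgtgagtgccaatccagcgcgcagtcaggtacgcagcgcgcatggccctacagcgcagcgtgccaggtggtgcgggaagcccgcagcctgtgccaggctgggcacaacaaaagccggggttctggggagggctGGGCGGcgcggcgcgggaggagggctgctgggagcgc
Promoters of 7 of the 9 genes were matched by symbol, and *Mmp2* and *Mmp9* were not. Both strands were searched, and TGANTCA reads the same on either strand apart from its middle base. TGANTCA was found in *Mmp3* as TGAGTCA, 46 bases before the start, and in *Mmp13* as TGACTCA, 35 bases before it, and in none of the other 5. It was held by 6.75% of the 32851 mouse promoter windows of this length. TATAAA was found in the same pair, 7 bases before the start in *Mmp3* and 16 bases before it in *Mmp13*, and is held by 12.4% of windows. GGGCGG was found in the other 5, *Mmp11*, *Mmp14*, *Timp1*, *Timp2* and *Timp3*, and is held by 32.7% of windows. These matches describe letters in the windows and were not tested for binding.

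In cluster 1, the tendon-like cells, *Timp2* had the highest level of the 9 genes in both tissues. It was followed by *Mmp2* and *Mmp14* in the culture and by *Mmp14* in the tail, whereas *Mmp3* and *Mmp13* were at or near 0. The order of other members differed, as *Timp1* had 161 CPM in the culture and 33.0 CPM in the tail, and *Mmp11* 39.5 and 122 CPM. The culture was higher than the tail in *Mmp2*, *Mmp9* and *Timp1*, and lower in *Mmp11*. *Mmp14* and *Timp3* differed by less than 1.2-fold.

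**Figure D1:**
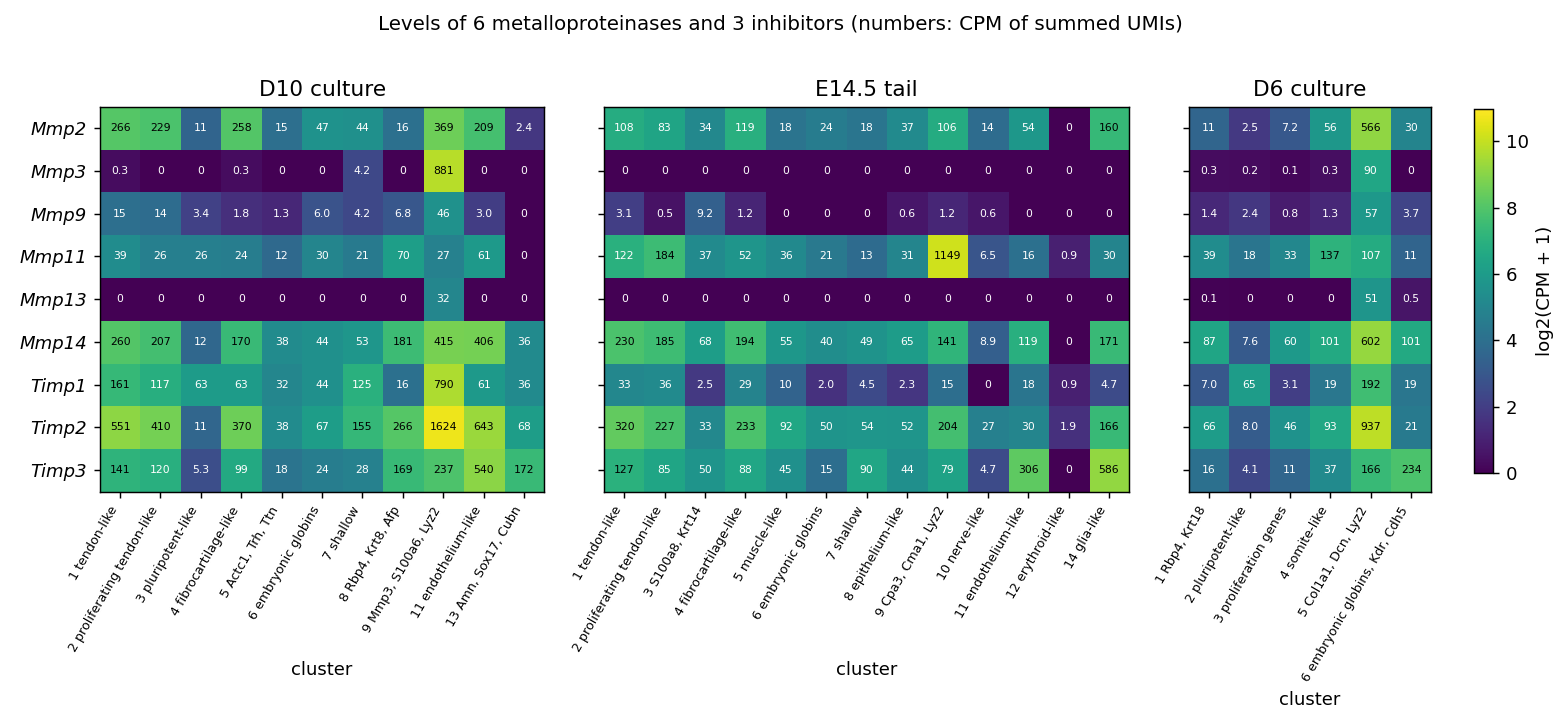
Levels of the 9 genes (rows) in each cluster with at least 20 cells (columns) in the panels of the D10 culture, of the tail and of the D6 culture, with color giving log2(CPM + 1) and the printed number giving CPM. *Mmp3* reached 881 CPM and *Mmp13* 31.9 CPM in culture cluster 9 and both were at 0 in every tail cluster, while *Mmp11* reached 1149 CPM in tail cluster 9.

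The gelatinase *Mmp2* reached 266 CPM (95% interval 258-273) in tendon-like cells of the culture, 229 CPM in their proliferating neighbors of cluster 2 and 258 CPM in fibrocartilage-like cells. In the tail the same clusters had 108 CPM (102-115), 83.4 CPM and 119 CPM. Every culture value was therefore above every tail value in these clusters, by 2.45-fold (2.29-2.62), 2.75-fold and 2.16-fold in turn. In cluster 11, the endothelium-like cells, the culture had 209 CPM against 54.4 CPM for the tail. *Mmp2* was low in several other clusters, with 10.6 CPM in culture cluster 3 (pluripotent-like) and 17.5 CPM in tail cluster 5 (muscle-like), and no UMI was found in the 128 cells of tail cluster 12 (erythroid-like), where 3 counts would be 2.82 CPM. The highest tail level was 160 CPM in cluster 14 (glia-like), in 38 cells. By order of level in the culture, cluster 9 stood first with 369 CPM, and the intervals of clusters 1 and 4 overlapped.

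*Mmp9*, the other gelatinase, was much rarer. Culture clusters 1 and 2 had 14.9 CPM (13.1-16.9) and 13.7 CPM, and cluster 4 had 1.80 CPM from 6 UMIs. In tail cluster 1 it had 3.06 CPM (2.08-4.35), in cluster 2 0.46 CPM from 2 UMIs, and in cluster 4 1.21 CPM from 4 UMIs. The culture over tail ratio was 4.86 (3.34-7.31) in cluster 1 and 29.7 (8.08-248) in cluster 2. The tail value of cluster 1 rested on few cells, since its 31 UMIs lay in 9 cells and 19 of them in 1 cell that also held 5 UMIs of the leukocyte marker list. Without the 2 cells with at least 3 leukocyte UMIs the level was 1.19 CPM and the ratio 12.5. The highest tail level, 9.17 CPM, was in cluster 3, led by *S100a8* and *Krt14*, from 11 UMIs.

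*Mmp11*, a stromelysin first known from stroma next to tumors, had the opposite order. Clusters 1, 2 and 4 of the culture had 39.5 CPM (36.5-42.6), 25.6 CPM and 24.1 CPM, and those of the tail 122 CPM (115-129), 184 CPM (172-198) and 51.7 CPM (44.2-60.1). Tail levels were thus higher by 3.09-fold (2.81-3.41), 7.20-fold (6.27-8.29) and 2.15-fold (1.64-2.84). In cluster 11 the culture was the higher library instead, with 60.6 CPM against 15.5 CPM, a ratio of 3.90, from 20 and 22 UMIs. Within tail cluster 2 the counts were uneven, as 121 of 186 cells held *Mmp11* and the 5 highest cells held 31.3% of its 798 UMIs. In culture cluster 1 no cell held more than 4 of the 655 UMIs.

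The membrane-anchored *Mmp14* was nearly even between the libraries in clusters 1, 2 and 4. Clusters 1, 2 and 4 of the culture had 260.5 CPM (253-268), 207 CPM and 169.6 CPM, against 230.2 CPM (221-240), 185 CPM and 193.5 CPM for the tail. The ratios were 1.13, 1.12 and 0.876 (0.781-0.983), all within 1.2-fold. Of the 4 clusters, only cluster 11 parted the libraries by more than 2-fold, at 406 CPM for the culture against 119 CPM.

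Among the inhibitors, *Timp1*, which is known to be inducible by growth factors, had the largest ratios between culture and tail in clusters 1, 2 and 4. Tendon-like culture cells had 161 CPM (155-167), cluster 2 had 117 CPM and cluster 4 had 63.1 CPM. The tail had 33.0 CPM (29.5-36.7), 36.5 CPM and 29.0 CPM. The ratios were 4.89 (4.36-5.49), 3.21 and 2.18. The intervals of the 3 tail levels overlapped, and those of the 3 culture levels did not. *Timp1* was also the highest of the 9 genes in pluripotent-like cells, 63.1 CPM in D10 culture cluster 3 and 65.3 CPM in D6 culture cluster 2.

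*Timp2* stood at 551 CPM (540-563), 410.0 CPM and 369.9 CPM in culture clusters 1, 2 and 4, and at 319.8 CPM (309-331), 227 CPM and 233 CPM in those of the tail. The culture was higher by 1.72-fold, 1.80-fold and 1.58-fold, short of 2-fold in each. The endothelium-like cells had 643 CPM in the culture against 30.4 CPM in the tail, a ratio of 21.2 (15.2-30.1). The cells of cluster 11 differed between the libraries in other genes too. *Lyve1* and *Prox1*, genes of lymphatic endothelium, had 679 and 522 CPM in the culture and 0 and 6.35 CPM in the tail, *Scx* had 639.8 and 23.3 CPM, and the part of these differences in the *Timp2* ratio was not tested.

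*Timp3*, the inhibitor that binds to the matrix, had 141 CPM (135-147), 120.3 CPM and 99.2 CPM in culture clusters 1, 2 and 4. The tail had 127 CPM (120-134), 85.2 CPM and 88.3 CPM. The ratios were 1.11, 1.41 and 1.12. Its highest levels lay elsewhere, at 586 CPM (528-649) in tail cluster 14 (glia-like), 539.7 CPM in culture cluster 11 and 306 CPM in tail cluster 11. *Timp3* was the member with the highest level in endothelium-like cells of the tail, and in those of the D10 culture it came after *Timp2*. *Syn1*, *Cep295nl* and *Syn3* overlap *Timp1*, *Timp2* and *Timp3* in the genome and had 0.42, 2.29 and 3.01 CPM in culture cluster 1 and 1.09, 2.07 and 5.33 CPM in tail cluster 1.

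**Figure D2:**
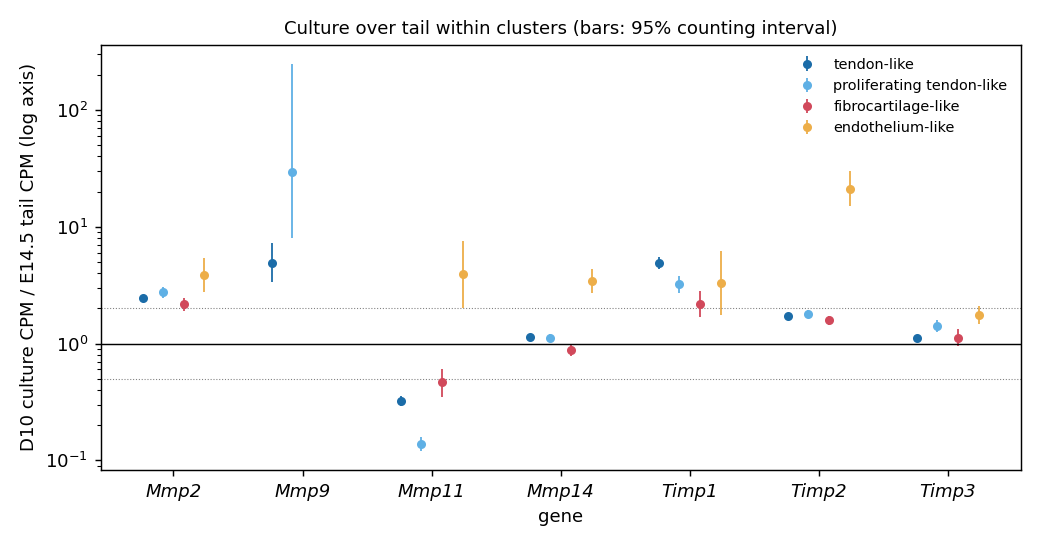
Ratio of the D10 culture level to the E14.5 tail level (log axis) for 7 genes in clusters 1, 2, 4 and 11, with bars for the 95% counting interval and dotted lines at 2-fold in either direction. *Mmp11* lies below the line of equal levels in clusters 1, 2 and 4 and above it in cluster 11, and *Timp1* lies above 2-fold in all 4 clusters.

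In cluster 1, 7 of the 9 members had enough UMIs, of which 3 were higher and 1 lower in the culture by 2-fold or more, while of all 15284 genes compared 9.20% were higher and 19.9% lower. In cluster 2, 3 of 7 were higher and 1 lower (8.29% and 14.3% of all genes). *Mmp9* entered that comparison only through the culture, and without such genes 2 of 6 were higher and 1 lower (6.24% and 10.7% of genes). In cluster 4, 2 of 6 were higher and 1 lower (7.61% and 13.9% of all genes). In cluster 11, 5 of 6 were higher and none lower, against 11.6% of all genes higher and 14.9% lower. The median log2 ratio of all genes was -0.24 in cluster 1, -0.17 in cluster 2, -0.16 in cluster 4 and -0.04 in cluster 11, so that the culture values of a typical gene lay slightly below those of the tail. The median of the members compared was 0.79, 0.85, 0.42 and 1.86. Hemoglobin RNA differed between the libraries, since *Hbb-y* had 20.5 CPM in culture cluster 1 and 483 CPM in tail cluster 1, and leaving out hemoglobin, mitochondrial and ribosomal protein genes moved none of 47 member ratios outside its counting interval. Relative to the median of all genes, 4 members were higher and 1 lower in clusters 1 and 2, since *Timp2* came to 2.04 and 2.02. Of all genes, 11.9% were then higher and 15.4% lower in cluster 1, and 10.2% and 11.6% in cluster 2. In cluster 4 *Mmp11* did not reach 2-fold, and 2 members were higher and none lower (9.72% of all genes higher and 11.1% lower).

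The other genes of extracellular proteolysis, a list of 66 further MMPs, ADAM and ADAMTS proteases, plasminogen activators, cathepsins and their inhibitors, held genes on either side in cluster 1. Of 51 compared in cluster 1, 10 were higher and 14 lower in the culture (9.20% and 19.9% of all genes). Relative to the median of all genes, 15 were higher and 13 lower (11.9% and 15.4% of all genes). Here and below, counts of this list keep any genes that entered only through the group where they were high. Among the higher ones, *Adamts18* had a ratio of 4.45 and *Serpine2*, an inhibitor of serine proteases, of 3.29. The lowest ratios belonged to *Adamts2*, the protease that trims the amino end of procollagen, which was higher in the tail by 11.1-fold (8.83-14.1), *Adamts19* and *Pcsk6*. In cluster 11, 12 of 24 were higher in the culture and none lower (11.6% of all genes higher and 14.9% lower).

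The comparison of cluster 4 with cluster 1 asked how the protease genes differ between fibrocartilage-like and tendon-like cells of the same library. *Timp1* was lower in fibrocartilage-like cells of the culture, 63.1 CPM against 161 CPM, by 2.55-fold (2.22-2.95). In the tail it was 29.0 CPM against 33.0 CPM, by 1.14-fold (0.903-1.44). *Mmp11* was lower in cluster 4 of the tail by 2.36-fold (2.01-2.79) and of the culture by 1.64-fold (1.30-2.10). *Mmp9* was lower in cluster 4 of the culture by 8.25-fold (3.74-22.7). In the tail its 2.53-fold lower value (0.895-9.87) came from 4 and 31 UMIs, and without the cells with leukocyte UMIs it held too few UMIs to be compared. *Mmp2* was level in both, at ratios of 0.973 in the culture and 1.10 in the tail. *Timp2* was lower by 1.49-fold in the culture and 1.37-fold in the tail, and *Timp3* had ratios of 0.705 and 0.693. In the culture 2 of 7 members compared were lower and none higher, where 7.94% of 13693 genes were lower and 3.50% higher, and in the tail 2 of 7 were lower and none higher, where 10.3% of 14071 genes were lower and 4.37% higher. *Mmp9* entered the tail comparison only through cluster 1, and without such genes 1 of 6 was lower (5.94% of genes).

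Among other protease genes, more were lower than higher in cluster 4, and most did not differ by 2-fold. Of 50 compared in the culture, 16 were lower and 3 higher, where 7.94% of all genes were lower and 3.50% higher. Of 44 in the tail, 16 were lower and 1 higher, where 10.3% of all genes were lower and 4.37% higher. The lower genes of the list include some that entered only through cluster 1 and could be called lower alone. No count or median of the list was made without such genes. Among them were *Adamts18* in the culture, with 1 against 430 UMIs, and *Adamts16* in the tail, with 2 against 99 UMIs. *Ctsk*, a cathepsin that cuts collagen, had ratios of 0.109 for the culture and 0.108 for the tail. The list had a median log2 ratio of -0.60 and -0.59, against 0.00 and -0.01 over all genes.

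Cluster 2 differs from cluster 1 by its proliferation genes, whose summed level was 4275 CPM against 544 CPM in the culture and 4276 CPM against 101 CPM in the tail. No member was higher or lower by 2-fold in the culture, where 3.82% of 14387 genes were higher and 3.17% lower. *Mmp11* was lower in cluster 2 of the culture, with a ratio of 0.648, and higher in cluster 2 of the tail, with a ratio of 1.51 (1.38-1.65). The tail value rested in part on few cells, with 31.3% of the UMIs of cluster 2 in its 5 highest cells, and after thinning to 3000 UMIs per cell the share of cells with *Mmp11* was 19.9% in cluster 2 and 27.3% in cluster 1, so that shares and levels gave opposite orders. *Timp2* had ratios of 0.744 and 0.711 and *Timp3* 0.854 and 0.669, both lower in the proliferating cells of both libraries. In the tail 1 of 7 members, *Mmp9*, which entered only through cluster 1, was lower, from 2 UMIs in cluster 2, and none was higher (6.80% of 14200 genes lower and 5.05% higher). Without such genes none of 6 was higher or lower (4.33% of genes higher and 4.24% lower). Without cells with leukocyte UMIs *Mmp9* held under 25 UMIs over both clusters and was no longer compared.

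The step from D6 to D10 was read by setting the tendon-like cells of the D10 culture against the somite-like cells of the D6 culture. In somite-like cells *Mmp11* was the leading MMP at 137 CPM (128-147), ahead of *Mmp14* at 101 CPM (93.5-110) and *Mmp2* at 55.6 CPM. *Timp2* had 93.5 CPM, *Timp3* 37.3 CPM and *Timp1* 19.2 CPM. At D10 the order had turned, with *Mmp11* below all 3 inhibitors, *Mmp2* and *Mmp14*. *Mmp2* was higher at D10 by 4.77-fold, *Mmp9* by 11.3-fold, *Mmp14* by 2.57-fold, *Timp1* by 8.37-fold, *Timp2* by 5.90-fold and *Timp3* by 3.77-fold. *Mmp11* was lower by 3.47-fold (3.13-3.85). Of the 7 members compared, 6 were higher and 1 lower, where 13.7% of 14423 genes were higher and 14.4% lower. Of 49 other protease genes, 32 were higher and 3 lower. *Adamts18* had a ratio of 158 (28.1-6237), from 1 UMI in somite-like cells, and *Adam12* of 57.8 (19.6-281), from 3 UMIs. Both entered only through the D10 cells and could be called higher alone. *Adamts19* was among the 3 lower ones with a ratio of 0.073.

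Pluripotent-like cells were compared over the same time. Of 7 members compared between D10 culture cluster 3 and D6 culture cluster 2, only *Mmp2* was 2-fold higher and none was lower (8.42% of 14794 genes higher and 5.79% lower), at 10.6 CPM against 2.55 CPM, a ratio of 4.15. This count is near the share of all genes. *Timp1* had a ratio of 0.967.

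**Figure D3:**
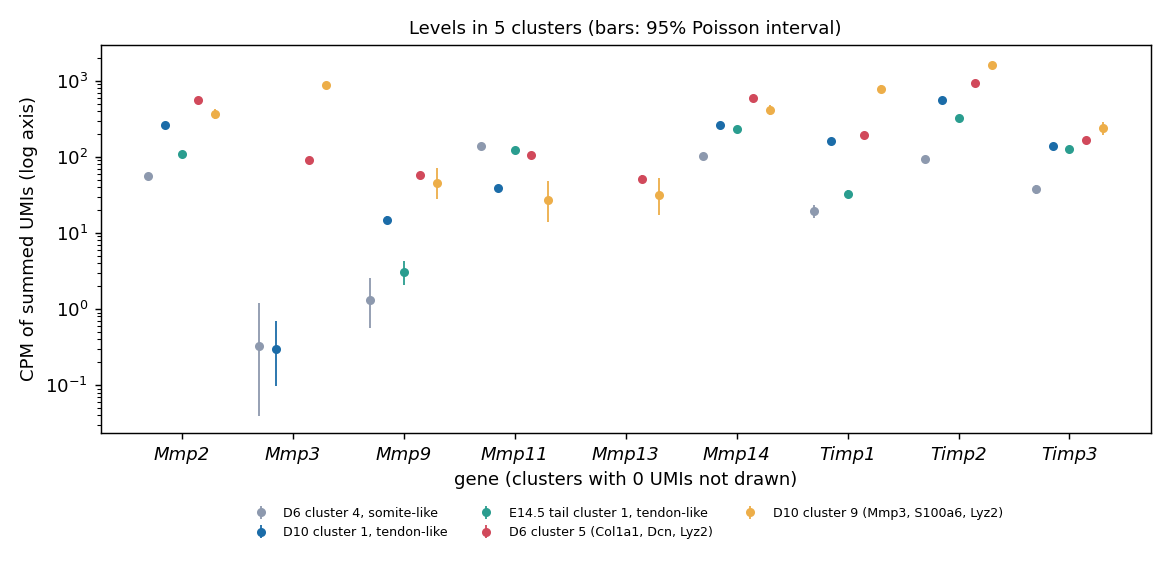
Levels (CPM, log axis) of the 9 genes in somite-like D6 cells, tendon-like D10 and tail cells, D6 cluster 5 and D10 cluster 9, with bars for the 95% Poisson interval and no point where no UMI was counted. *Mmp3* and *Mmp13* are drawn above 30 CPM in D6 cluster 5 and D10 cluster 9 only, and *Mmp11* is highest in the somite-like cells.

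*Mmp3* and *Mmp13* were found almost entirely in 1 cluster of each culture. Of the 395 *Mmp3* UMIs of the D10 culture, 387 lay in cluster 9, a cluster of 53 cells led by *Mmp3*, *S100a6* and *Lyz2*, and all 14 *Mmp13* UMIs lay there too. In the D6 culture 530 of 541 *Mmp3* UMIs and 302 of 304 *Mmp13* UMIs lay in cluster 5, which held 662 cells and was led by *Col1a1*, *Dcn* and *Lyz2*. The tail held none of either gene in any of its 2052 cells, where 3 counts would be 0.0957 CPM over the library. *Mmp3* is a stromelysin that cuts proteoglycans and activates other MMPs, and *Mmp13* is the main collagenase of mouse. Because cluster 9 is named by *Mmp3*, its level there is a description.

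The level of *Mmp3* was 881 CPM (796-974) in D10 cluster 9 and 89.9 CPM (82.4-97.8) in D6 cluster 5, against 0.30 CPM, from 5 UMIs, in culture cluster 1. The level of *Mmp13* was 31.9 CPM (17.4-53.5) in D10 cluster 9 and 51.2 CPM (45.6-57.3) in D6 cluster 5, and none of its UMIs were found in culture cluster 1 or in the somite-like cells. The 14 *Mmp13* UMIs of D10 cluster 9 were too few for a comparison with culture cluster 1, and 10 of them lay in 1 cell, without which the level was 9.41 CPM.

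These UMIs came from few cells. In D10 cluster 9, *Mmp3* was found in 14 of 53 cells, and 217 of its 387 UMIs, or 56.1%, lay in 1 cell. Without that cell the level was 400.0 CPM. In D6 cluster 5, *Mmp3* was found in 88 of 662 cells, and the highest cell held 13.6%. *Mmp13* was found there in 31 cells, and 180 of its 302 UMIs, or 59.6%, lay in 1 cell, which also held 5 leukocyte UMIs. Without that cell its level was 20.7 CPM. The 20 cells with at least 3 leukocyte UMIs had 618 CPM of *Mmp13* and the other 642 had 17.6 CPM, whereas for *Mmp3* these values were 148 CPM and 86.4 CPM. In D10 cluster 9 the 5 cells with leukocyte UMIs held no *Mmp3* and no *Mmp13*.

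Other members were also found in both clusters. In D6 cluster 5, *Mmp2* had 566 CPM, *Mmp14* 602 CPM, *Timp2* 937 CPM, *Timp1* 192 CPM, *Mmp9* 57.1 CPM and *Timp3* 166 CPM. These were 10.2-fold, 5.94-fold, 10.0-fold, 10.0-fold, 43.4-fold and 4.44-fold the levels of the somite-like cells. *Mmp11* was the exception at 107 CPM, with a ratio of 0.781. In all, 8 of 9 members were higher in cluster 5 than in somite-like cells and none lower (17.6% of 13419 genes higher and 25.8% lower). *Mmp3*, *Mmp9* and *Mmp13* entered only through cluster 5, and without such genes 5 of 6 were higher and none lower (13.1% of genes higher and 22.0% lower). Against D10 cluster 1 the ratios of cluster 5 were 2.13 for *Mmp2*, 2.31 for *Mmp14*, 2.71 for *Mmp11*, 3.84 for *Mmp9*, 1.70 for *Timp2*, 1.19 for *Timp1* and 1.18 for *Timp3*, and 6 of 9 members were higher and none lower (16.8% of 14509 genes higher and 22.6% lower). Without *Mmp3*, *Mmp13* and the other genes that entered only through 1 group, 4 of 7 were higher and none lower (13.6% of genes higher and 18.6% lower). In D10 cluster 9, *Timp2* reached 1624 CPM, *Timp1* 790.4 CPM and *Mmp14* 414.5 CPM. *Timp1* was 4.90-fold and *Timp2* 2.95-fold the level of cluster 1, and 4 of 8 members were higher and none lower (19.1% of 13394 genes higher and 19.4% lower). *Mmp3* entered only through cluster 9, and without such genes 3 of 7 were higher and none lower (13.8% of genes higher and 21.1% lower). Both counts include *Mmp9*, whose 20 UMIs in cluster 9 lay in 6 cells and 9 of them in 1 cell, without which its level of 45.6 CPM was 25.5 CPM against 14.9 CPM in cluster 1, short of 2-fold. Compared with D6 cluster 5, 2 of 9 members were higher in D10 cluster 9 and 1, *Mmp11*, was lower (8.21% of 11236 genes higher and 11.7% lower).

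A pair of further MMPs, picked after their values were seen, was also found in these clusters. *Mmp10*, a stromelysin, had 36.4 CPM in D10 cluster 9 and 22.0 CPM in D6 cluster 5, and *Mmp12*, the macrophage elastase, had 68.3 CPM and 56.5 CPM. Both were at 0 in tail clusters 1 and 9. *Mmp12* was the gene whose pattern over clusters was most like that of *Mmp3*.

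These clusters also differed from culture cluster 1 and the somite-like cells in other markers. *Xist*, the RNA that coats the inactive X chromosome, had 631 CPM in D10 cluster 9 and 1152 CPM in D6 cluster 5, against 6.39 CPM in D10 cluster 1, 23.4 CPM in the somite-like cells and 315 CPM in tail cluster 1. All 6 leukocyte genes were found in both, with summed levels of 2196 CPM and 857 CPM against 5.30 CPM in culture cluster 1 and 7.90 CPM in the somite-like cells, and *Tyrobp* had 512 CPM and 84.8 CPM. These UMIs lay in few cells, since 5 of 53 cells of D10 cluster 9 held all 484 *Lyz2* UMIs, 429 of them in 1 cell, and 20 of 662 cells of D6 cluster 5 held 3682 of its *Lyz2* UMIs while the other 642 held 10. The 6 genes of the fibroblast list summed to 2162 CPM and 1772 CPM, which describes these clusters and is not set against another group here. The genes of the paraxial mesoderm list summed to 137 CPM and 134 CPM, against 852 CPM in culture cluster 1. The part of these cells, or of the feeder fibroblasts, in the levels of *Mmp3* and *Mmp13* was not tested.

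**Figure D4:**
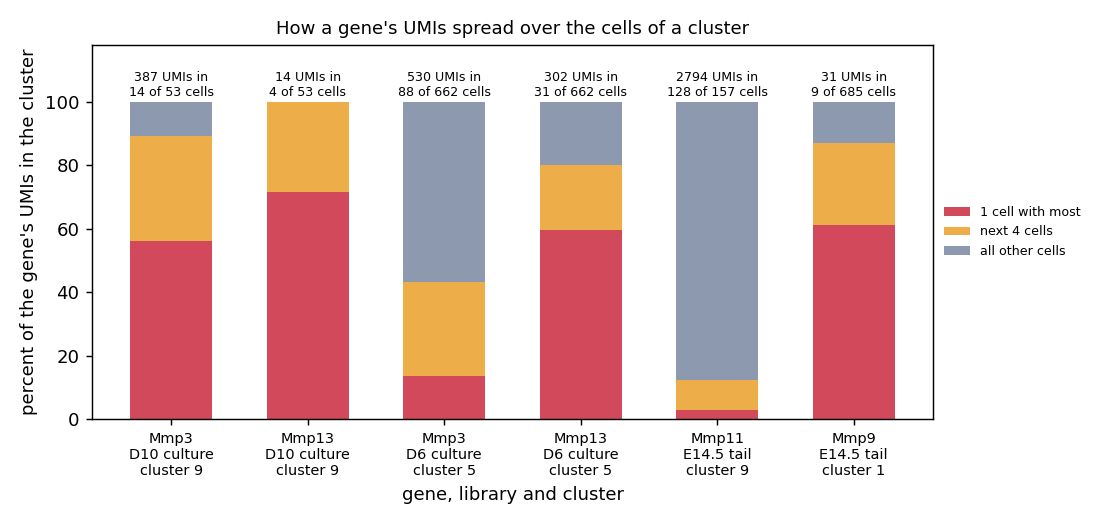
Percent of a gene's UMIs in a cluster that lay in the cell with the most, in the next 4 cells and in all other cells, for 6 pairs of gene and cluster, with the UMI and cell counts above each bar. The highest cell held 56.1% of *Mmp3* in D10 cluster 9 and 59.6% of *Mmp13* in D6 cluster 5, and 2.79% of *Mmp11* in tail cluster 9.

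*Mmp11* had its highest level of any cluster in tail cluster 9, 1149 CPM from 2794 UMIs, which was 53.2% of all *Mmp11* UMIs of the tail. Cluster 9 of the tail held 157 cells, led by *Cpa3*, *Cma1* and *Lyz2*, genes of mast cells and macrophages, yet it also had *Col1a1* at 2870 CPM and *Dcn* at 1505 CPM. Its *Scx* level was 90.1 CPM. In contrast to *Mmp3*, the UMIs were spread widely, with 128 of 157 cells holding *Mmp11*. The 34 cells with at least 3 leukocyte UMIs had 360.3 CPM and the other 123 cells had 1541 CPM. The level was 9.40-fold that of tail cluster 1. No other member was higher there, while *Mmp9* and *Timp1* were lower by 2.48-fold (0.774-12.7) and 2.23-fold, so that 1 of 7 was higher and 2 lower (8.54% of 14173 genes higher and 13.1% lower). Neither lower call held without the cells with leukocyte UMIs, where *Mmp9* held too few UMIs to be compared and *Timp1* had a ratio of 0.620. *Mmp9* had entered only through cluster 1, and without such genes 1 of 6 was higher and 1 lower (6.20% of genes higher and 7.87% lower). Culture cluster 9 bears the same code but had 27.3 CPM of *Mmp11*, from 12 UMIs.

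The share of cells in which a member was found was compared after every cell had been thinned to 3000 UMIs, since tail cells were sequenced more deeply. In culture cluster 1, 2595 cells were deep enough and 369 were left out. *Timp2* was found in 73.6% of them, *Mmp2* in 50.9%, *Mmp14* in 50.5%, *Timp1* in 29.1%, *Timp3* in 28.9%, *Mmp11* in 11.7% and *Mmp9* in 2.93%. In the 678 cells kept of tail cluster 1 the shares were 60.5%, 27.6%, 49.4%, 7.96%, 28.5%, 27.3% and 0.590%. The order of the libraries was thus the same in shares as in levels for 5 of these genes, while the shares of *Mmp14* and of *Timp3* lay within each other's intervals. Without thinning, *Timp2* was found in 84.4% of the culture cells and 95.2% of the tail cells of cluster 1. For *Mmp11* in tail cluster 2 the share of 19.9% went against the CPM, and no order was read from it. Erythroid-like cells, which should lack these genes, held 4 UMIs of all 9 members in 128 cells. *Mmp14* and *Timp2*, whose products act together on the precursor of Mmp2, were found in the same cell in 38.5% of culture cluster 1 and 30.2% of tail cluster 1, close to the products of their single shares of 37.1% and 29.9%. All 3 of *Mmp14*, *Mmp2* and *Timp2* were found in 20.7% (19.1-22.3) of cells in culture cluster 1 and 9.14% (7.08-11.6) in tail cluster 1. In D6 cluster 5 they were found together in 43.2% (38.7-47.8). The products of the single shares were 18.9%, 8.24% and 37.3% in turn, below the interval in culture cluster 1 and D6 cluster 5.

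The balance of the 2 families was described by the UMIs of the 3 inhibitors over those of the 6 MMPs. Culture clusters 1, 2 and 4 had values of 1.47 (1.43-1.51), 1.36 and 1.17, and the same clusters of the tail 1.04 (0.994-1.08), 0.770 and 0.959. The culture was above the tail in each of them, with no overlap of intervals. In somite-like cells at D6 it was 0.508 (0.468-0.550), so that MMP UMIs outnumbered inhibitor UMIs. *Mmp11* made up 833 of the 1797 MMP UMIs there, 1237 of 4696 in tail cluster 1 and 655 of 9633 in culture cluster 1. In cluster 2 it made up 798 of 1962 in the tail and 274 of 5088 in the culture, and in cluster 4 171 of 1210 and 80 of 1510. No inhibitor over MMP value was computed without *Mmp11*. The lowest value was 0.212 in tail cluster 9, where *Mmp11* made up 2794 of 3399 MMP UMIs. Endothelium-like cells had 1.83 in the D10 culture and 1.88 in the tail, with overlapping intervals. The members behind these values were not the same, for *Timp2* over *Mmp14* was 1.58 and 0.256. That ratio was 2.12 in tendon-like cells at D10, 1.39 in those of the tail and 0.922 in somite-like cells. *Timp2* over *Mmp2* had the opposite order of the libraries, at 2.08 in culture cluster 1 against 2.95 in tail cluster 1. For culture against tail it was 1.79 against 2.73 in cluster 2 and 1.43 against 1.95 in cluster 4. The intervals of culture and tail did not overlap in any of these clusters. Which library was higher thus depended on the MMP that *Timp2* was set against. UMIs of different genes were set side by side without a test of how well each transcript is captured. All of these ratios therefore serve to compare clusters.

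**Figure D5:**
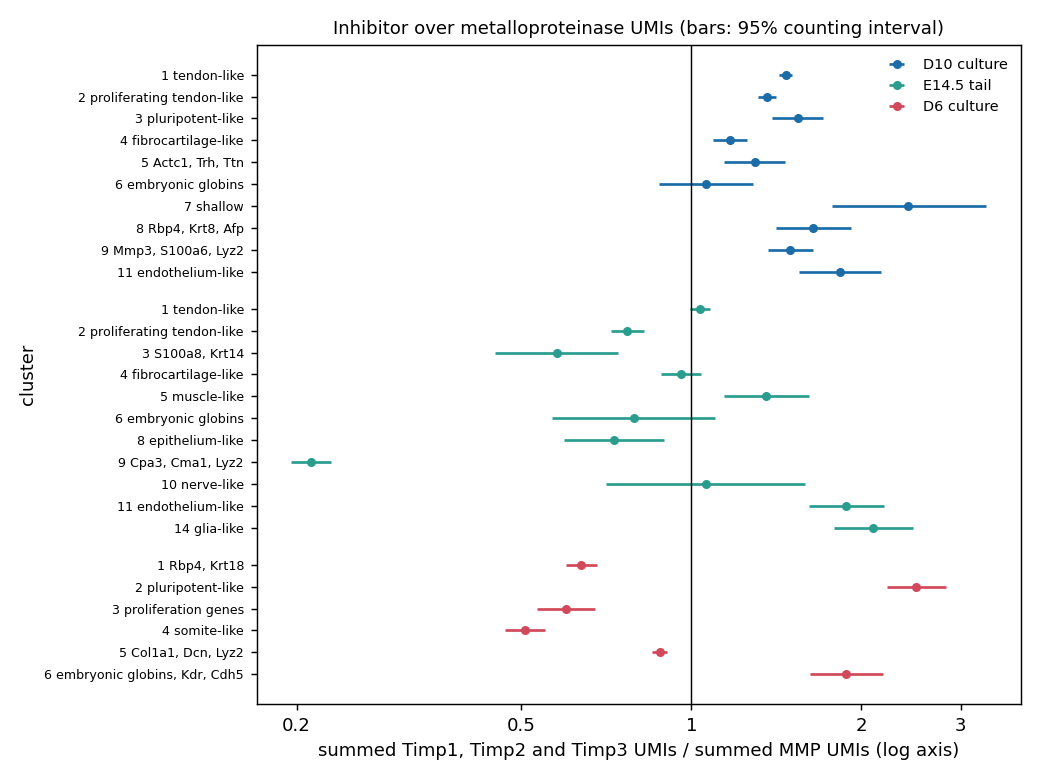
Summed UMIs of *Timp1*, *Timp2* and *Timp3* over summed UMIs of the 6 MMPs (log axis) for clusters with at least 25 MMP UMIs, with bars for the 95% counting interval and a line at 1. Culture clusters 1, 2 and 4 lie between 1.17 and 1.47, the same tail clusters between 0.770 and 1.04, and tail cluster 9 lies lowest at 0.212.

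Across 27 clusters of the 3 libraries the members fell into unequal pairs. These correlations are descriptions, since clusters of a library share their depth and handling. *Mmp14* went with *Timp3* (Pearson's r = 0.91, Spearman's rho = 0.84) and with *Timp2* (r = 0.90, rho = 0.89), and *Mmp2* with *Timp2* (r = 0.90, rho = 0.86) and *Mmp14* (r = 0.88, rho = 0.86) on the log2(CPM + 1) scale. *Mmp3* went with *Mmp13* at r = 0.94 but rho = 0.46, since both are at or near 0 in most clusters. *Mmp9* was most like *Timp1* among the members (r = 0.79). *Mmp11* reached at most r = 0.64, with *Mmp14*. Over all genes with at least 100 UMIs, the pattern of *Mmp2* was most like *Oaf*, *Itpripl2* and *Bgn*, a proteoglycan of tendon, with r of 0.92 for each. *Mmp14* was most like *Tmed3*, *Fndc3b* and *Itpripl2*, and *Timp2* like *Oaf*, *Gsn* and *Mmp14* itself. *Timp3* was most like *Tgfbr2*, a TGFβ receptor, *Cmtm3* and *Tnfrsf1a*. *Timp1* and *Mmp9* shared *Ano3* among their 3 most like genes. *Mmp11* was most like *Ptk7*, *Notch2* and *Cdon*, all with r between 0.79 and 0.82. *Mmp13* was most like *Atp6v0d2*, *Gm48550* and *Ccl5*, and *Mmp3* like *Mmp12*, *Prl2c3* and *Ccl8*. Both rankings rest on few clusters, as *Mmp3* and *Mmp13* were at or near 0 in most. By Spearman's rho *Prl2c3* had rank 56 for *Mmp3*, and *Cdon* had rank 186 for *Mmp11*.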

How the data were processed

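The matrices deposited by the authors hold raw counts, the number of UMIs of each gene in each cell as Cell Ranger gives them for 3′ v3 libraries of 10x Genomics, with no read kept that aligned to several places. Cells with a high mitochondrial share or with the fewest or most transcripts had been removed before the analysis in Seurat 3.0. The genome build of these counts is not given in the sources used here. The cluster code of each cell, deposited with the counts, was used to sum UMIs per cluster.

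The 9 genes, the protease list, the marker lists and the alternatives were chosen with earlier results of these data known. CPM was computed over all genes, for clusters of at least 20 cells (50 per group in comparisons). Intervals at 95% are exact Poisson for levels, exact conditional binomial for ratios and Clopper-Pearson for shares, and UMIs without replicate libraries make them counting error only. A group without UMIs was set to a floor of 3 counts in total, used for fold calls and for the level of 3 counts where it is printed. A gene was compared if both groups together held at least 25 of its UMIs, and 2-fold was called a difference. Most-like genes needed at least 100 UMIs and clusters of at least 50 cells. Besides the members, the 5 genes of the protease list with the largest ratios in each direction and at least 100 UMIs could be named, together with markers. Not all genes that this rule names are reported here. Genes named only to describe a cluster, and *Mmp10* and *Mmp12* in cluster 9, were named after their values were seen. Scrublet (Scanpy 1.11.5) marked 1.48%, 0.439% and 1.36% of the cells of the D10 culture, the tail and the D6 culture as doublets, and these cells were kept. Under 0.5% marked in the tail leaves its doublets unassessed, with the authors' removal of the highest cells before. On simulated data for 3 comparisons, of 15306, 11734 and 14394 genes, 200 of 200 genes changed 4-fold were recovered in each, and 131, 111 and 173 unchanged genes were also past 2-fold. These counts were Poisson draws from the pooled profile of both groups, and changed genes had at least 100 UMIs. The draws held no variation between cells or libraries, so that they give no error rate for the real comparisons. Python 3.11.15, NumPy 2.4.6, SciPy 1.17.1 and Matplotlib 3.10.9 were used.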

Additional observations from a re-analysis of the deposited data

Results flagged for a closer look

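No group held enough libraries for a search for outlying samples. Pairs of ratios with opposite directions, each with an interval that leaves out 1, were taken for a closer look, and none of these differences was tested, as each condition had 1 library. For *Mmp11*, proliferating over other tendon-like cells gave 0.648 in the culture and 1.51 in the tail, where the 5 highest of 186 cells of cluster 2 held 31.3% of the UMIs and shares of cells at equal depth had the opposite order. *Mmp11* was also lower in the culture than in the tail in cluster 1, at 0.323, and higher in cluster 11, at 3.90. *Mmp14* was higher in the culture in cluster 1, at 1.13, and lower in cluster 4, at 0.876. Relative to the median of all genes its log2 ratio was 0.42 in cluster 1 and -0.03 in cluster 4, the latter close to that median.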

How the results depend on the processing

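No paired analysis was possible because each condition had 1 library. The count of members at least 2-fold apart moved by more than 1.5 times in the settings named here. Thresholds of 1.5-fold and 3-fold and a minimum of 100 UMIs were run for all 15 comparisons (8 of them added after seeing the data), cells with leukocyte UMIs or genes that entered only through 1 group were left out in 14, and the other settings were run for 5 to 9. At a 3-fold threshold the count was 0 in place of 3 for culture over tail in cluster 4, 1 in place of 2 for cluster 4 over cluster 1 of the culture, 0 in place of 2 in the tail, 3 in place of 6 for D6 cluster 5 over D10 cluster 1 and 1 in place of 3 for cluster 9 over cluster 1 of the tail. At 1.5-fold it was 4 in place of 2 for cluster 4 over cluster 1 of the culture, 1 in place of 0 for cluster 2 over cluster 1 of the culture and 2 in place of 1 in the tail, 6 in place of 3 for D10 cluster 9 over D6 cluster 5 and for cluster 9 over cluster 1 of the tail, and 2 in place of 1 for pluripotent-like cells. With at least 100 UMIs it was 3 in place of 5 for cluster 11, 1 in place of 2 for cluster 4 and 0 in place of 1 for cluster 2 over cluster 1 of the tail. Leaving out cells with leukocyte UMIs, chosen after seeing the data, gave 1 in place of 2 for cluster 4 over cluster 1 of the tail, 0 in place of 1 for cluster 2 over cluster 1 of the tail and 1 in place of 3 for cluster 9 over cluster 1 of the tail, and turned *Mmp9* to 1.02 in cluster 4 over cluster 1 and 1.55 in cluster 9 over cluster 1 of the tail, both from fewer than the 25 UMIs a comparison needs. The cells left out were those with at least 3 UMIs over *Ptprc*, *Tyrobp*, *Fcer1g*, *Csf1r* and *Cd68*, without *Lyz2* of the leukocyte list. In tail cluster 1 such cells held 19 of its 31 *Mmp9* UMIs. Of 101 ratios, 10 left their counting interval without cells with leukocyte UMIs and 2 turned. Leaving out genes that entered only through the group where they were high, also chosen after seeing the data, gave 1 in place of 2 for cluster 4 and 0 in place of 1 for cluster 2 over cluster 1 of the tail, and 5 in place of 8 for D6 cluster 5 over somite-like cells. All 61 ratios stayed within their counting interval without Scrublet doublets, all 47 without cells under 1000 genes, all 47 without mitochondrial, hemoglobin and ribosomal protein genes, and all 33 without shared barcodes, also chosen after seeing the data. Dividing by the median ratio of all genes moved 13 of 47 ratios out of it, and a mean over cells of CPM per cell 8 of 61. Levels depended more on the setting than ratios. Of 113 levels, 49 left their counting interval without mitochondrial, hemoglobin and ribosomal protein genes, 31 as a mean over cells, 11 without cells with leukocyte UMIs, 7 without doublets and 1 without cells under 1000 genes, and 12 of 77 did without the cell with most UMIs. Of 135 shares of cells, 77 left it when thinned to 1500 UMIs, 72 at 5000 UMIs and 85 without thinning, so that shares hold for 3000 UMIs only. Of 30 inhibitor over MMP ratios, 1 left it without cells with leukocyte UMIs. Ranking by Spearman's rho left 1 of the 3 most like genes for 7 members and 2 of 3 for *Mmp3* and *Mmp13*. Few UMIs limit *Mmp9*, *Mmp13* and cluster 11.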
